A study of Sus scrofa with 6 samples.

Results

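Gene entries of 8 pig genes differed between the libraries of anestrous and estrous sows. For most entries the difference ran the same way in the hypothalamus, the pituitary and the ovary. The genes were SNCG, C14H10orf116, PPP1R11, SMARCC2, CPQ, RAB11FIP5, SQRDL and TUBA1C. Summed reads did not run one way for both RAB11FIP5 entries, for SQRDL with SQOR, its current name, or for TUBA1C with its near-identical relative TUBA1B. All 8 genes are described here by entry. The 8 genes were taken by name because earlier values of these same libraries showed them alike in all 3 tissues, so their differences are a description and carry no test. They occupied 10 of the 19465 gene entries in each deposited table, since PPP1R11 and RAB11FIP5 had 2 entries each. The tables themselves named 5 of these entries. The other 5 (SNCG, SMARCC2, CPQ, the PPP1R11 entry ENSSSCG00000024259 and the RAB11FIP5 entry ENSSSCG00000022162) were named from a table of Ensembl pig gene symbols.

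RNA was sequenced from anestrous and estrous primiparous sows, that is, sows after their first litter, all of a Landrace x Large White cross. The labels put the anestrus down to inactive ovaries. They give 3 sows per state, and state neither whether RNA was pooled nor whether the 3 tissues came from the same sows. There was 1 library per tissue and state, 6 in all, so no difference below has a replicate check, and the animals and the state cannot be told apart.

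The reads assigned to genes numbered between 15314325 and 17384789 per library, and 15182 to 15591 genes had a read. Values below are reads unless another scale is named. Normalised counts are reads over a size factor of the library. The log2 fold divides the anestrous by the estrous normalised count, each with 1 added. RPM stands for a gene's reads per 1000000 reads of its library. Folds are ratios of normalised counts without that addition, and the range in brackets after a fold is a 95% interval for counting error only. Where a library had 0 reads, a count that allows up to 3 reads, the fold was taken against 3 reads and is written "at least". The lower limit of the 95% interval lies below such a fold and is given beside it. "2-fold" means a log2 fold of at least 1 in size, and a gene was counted as called where its mean normalised count in the tissue also reached a floor of 50.

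Genes marking each tissue had reads in their own tissue's libraries, all 7 found of 7 listed in the hypothalamus, 6 of 7 in the pituitary and 7 of 7 in the ovary. The 6 pituitary genes together held 259417 RPM in the anestrous and 248529 in the estrous pituitary library. The 7 hypothalamus genes held 1365 RPM in the anestrous and 2111 in the estrous hypothalamus library, but did not go one way. There AVP and OXT were lower in anestrus (log2 folds -4.93 and -2.76), and SIM1 and NKX2-1 less so (-0.42 and -0.14). SYT1, SLC32A1 and GAD1 were higher (0.59, 0.83 and 0.40). The 7 ovary genes, which include steroid enzymes, FSHR and FOXL2, held 1366 RPM in the anestrous and 13726 in the estrous ovary library, and each of them was at least 2-fold lower in the anestrous one. In such bulk tissue, fewer cells of a type and less RNA per cell cannot be told apart.

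The 8 genes belong to no common pathway. SNCG encodes gamma-synuclein, a small protein that in human and rodent is abundant in peripheral neurons and is also found in fat cells, while C14H10orf116 is an older name for ADIRF, the adipogenesis regulatory factor. PPP1R11 encodes an inhibitor of protein phosphatase 1, and SMARCC2 encodes BAF170, a scaffold subunit of the SWI/SNF (BAF) chromatin remodelling complex. CPQ is a peptidase of lysosomes and secretory vesicles, RAB11FIP5 binds the small GTPase Rab11 on recycling endosomes, SQRDL is an older name for SQOR, the mitochondrial enzyme that starts the oxidation of hydrogen sulfide, and TUBA1C is one of the alpha-tubulins from which microtubules are built.

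Of the 10 entries, 8 were at least 2-fold different in the same direction in all 3 tissues, 6 higher and 2 lower in the anestrous libraries. Only 5 of the 8 also met the floor in every tissue, namely SNCG, SMARCC2, CPQ and the RAB11FIP5 entry ENSSSCG00000022162, which were higher, and TUBA1C, which was lower. The other 3 fell under the floor in 1 tissue each, PPP1R11 (ENSSSCG00000028347) and SQRDL in the pituitary and C14H10orf116 in the ovary. The remaining 2 entries, PPP1R11 (ENSSSCG00000024259) and RAB11FIP5 (ENSSSCG00000021283), were not alike by this measure. The genes were chosen on values of these same libraries, so the 8 alike entries restate that choice and do not test it. Among all genes over the floor in all 3 tissues, 0.128% were called higher in each of them and 0.0428% were called lower. Since the genes were chosen on these contrasts, nothing is read from their counts against these shares.

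**Figure D1:**
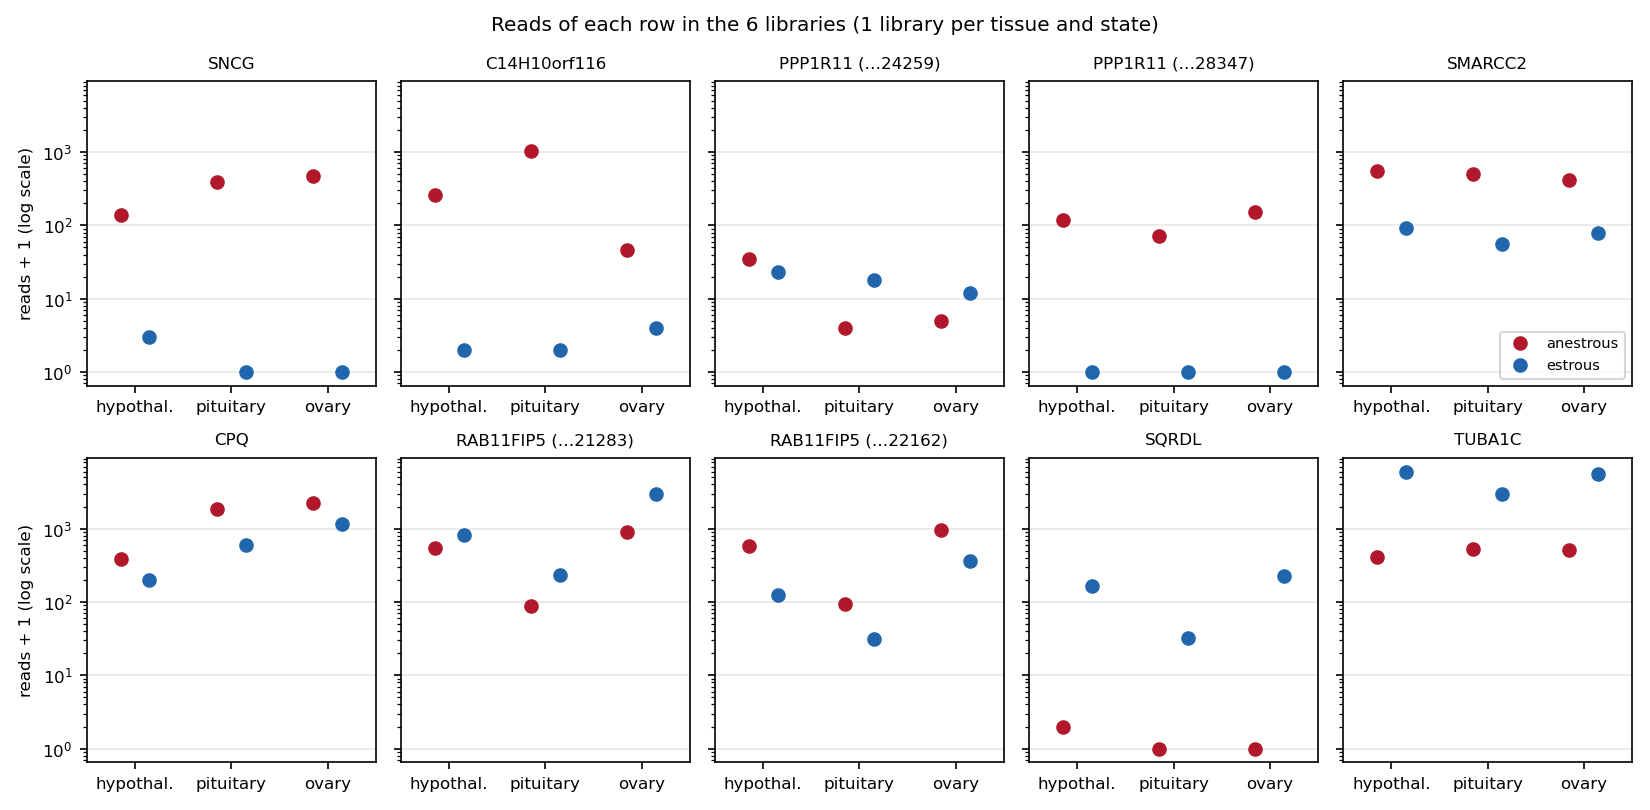
Reads of each of the 10 entries (vertical axis, reads plus 1, log scale) in the anestrous (red) and estrous (blue) library of each tissue, 1 point per library. SNCG, C14H10orf116 and PPP1R11 (ENSSSCG00000028347) had at most 3 reads in every estrous library, SQRDL had at most 1 read in every anestrous library, and TUBA1C lay between 404 and 523 reads in anestrus, against 2936 to 5943 in estrus.

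SNCG (ENSSSCG00000026850) was read in all 3 anestrous libraries and almost not at all in the estrous ones. It had 137 reads in the anestrous hypothalamus, against 2 in the estrous hypothalamus. In the pituitary it had 387 reads in anestrus, against 0 in estrus, and in the ovary 466 in anestrus, against 0 in estrus. The lowest anestrous library held 137 reads and the highest estrous library 2. These are libraries of 3 different tissues, not replicates of a state, and the gene was chosen on them. The fold was 70.7 in the hypothalamus (19.2 to 590), at least 137 in the pituitary and at least 168 in the ovary. The lower 95% limits of the pituitary and ovary folds were 111 and 136. The log2 folds were 5.56, 8.64 and 8.93. The authors' deposited table gave adjusted p-values of 2.01e-09, 2.41e-23 and 5.86e-08 in the same order of tissues. Those p-values compare 1 library with 1 and so describe the libraries, not the states.

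SNCB, beta-synuclein, a brain-rich relative of SNCG, did not share this pattern. It had 3592 reads in the anestrous and 2546 in the estrous hypothalamus (log2 fold 0.54), and 1004 and 1333 reads in the anestrous and estrous pituitary (log2 fold -0.32). It was under 2-fold different in both tissues. In the ovary it had 3 reads in anestrus and 1 in estrus, too few to compare.

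Gamma-synuclein is found in fat cells in other species. Of 5 listed fat cell markers, PLIN1, CIDEC and LEP were found and were low here, while ADIPOQ and FABP4 were not found by name. The 3 markers found held 3.60 and 2.68 RPM in the anestrous and estrous hypothalamus. They held 0.345 and 0.470 in the anestrous and estrous pituitary, and 2.19 and 0.452 in the anestrous and estrous ovary. SNCG itself stood at 8.66, 22.3 and 28.4 RPM in the anestrous hypothalamus, pituitary and ovary. LEP, the fat hormone leptin, was at 0 in all 6 libraries, and whether its entry could collect reads was not tested. The part of fat cells in the SNCG difference was not tested.

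C14H10orf116 (ENSSSCG00000029058) was read in all 3 anestrous libraries and had at most 3 reads in every estrous one. It had 260 reads in the anestrous hypothalamus, against 1 in the estrous, and 1049 in the anestrous pituitary, against 1 in the estrous. In the ovary it had 45 reads in anestrus, against 3 in estrus. The anestrous libraries were thus all above the estrous ones, but the ovary held few reads in either state. The fold was 268 in the hypothalamus (47.7 to 10640), 1112 in the pituitary (199 to 43948) and 16.3 in the ovary (5.22 to 81.8), where the mean normalised count of 24.9 was under the floor. The adjusted p-values in the authors' deposited table were 5.1e-18, 3.59e-45 and 0.529.

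In a RefSeq annotation of the Sscrofa11.1 assembly, used here only for the order of genes, SNCG and ADIRF are direct neighbours. The gene on the other side of SNCG, MMRN2, which encodes a protein of the vessel wall matrix, went the other way. It had 37 reads in the anestrous and 84 in the estrous hypothalamus, 67 and 107 in the anestrous and estrous pituitary, and 94 and 203 in the anestrous and estrous ovary. Its log2 folds were -1.12, -0.58 and -0.99. BMPR1A, a receptor for bone morphogenetic proteins next to MMRN2, and GLUD1, glutamate dehydrogenase, had log2 folds between -0.54 and 0.78. The nearness of SNCG and ADIRF is a property that did not enter their choice, and no test was made of it.

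Across all members, 36 protein-coding genes lie within 3 places of one of them in that annotation, members aside, and 30 were found in the tables. TUBA1C was not found there by symbol and has no neighbours in this count. Over the floor of 50 were 18 neighbours in the hypothalamus, 17 in the pituitary and 18 in the ovary. At least 2-fold higher were 0, 0 and 1 of them (SDC2, next to CPQ, log2 fold 1.17 in the ovary), and at least 2-fold lower were 1, 0 and 0 (MMRN2 in the hypothalamus). The medians of their log2 folds were 0.11, -0.02 and -0.13. This stands beside 1.29%, 1.2% and 12.3% of all genes over the floor called higher, and 1.04%, 1.9% and 7.95% called lower, in the same order of tissues. Of the 17 neighbours over the floor in all 3 tissues, 0 were 2-fold alike in all 3.

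**Figure D2:**
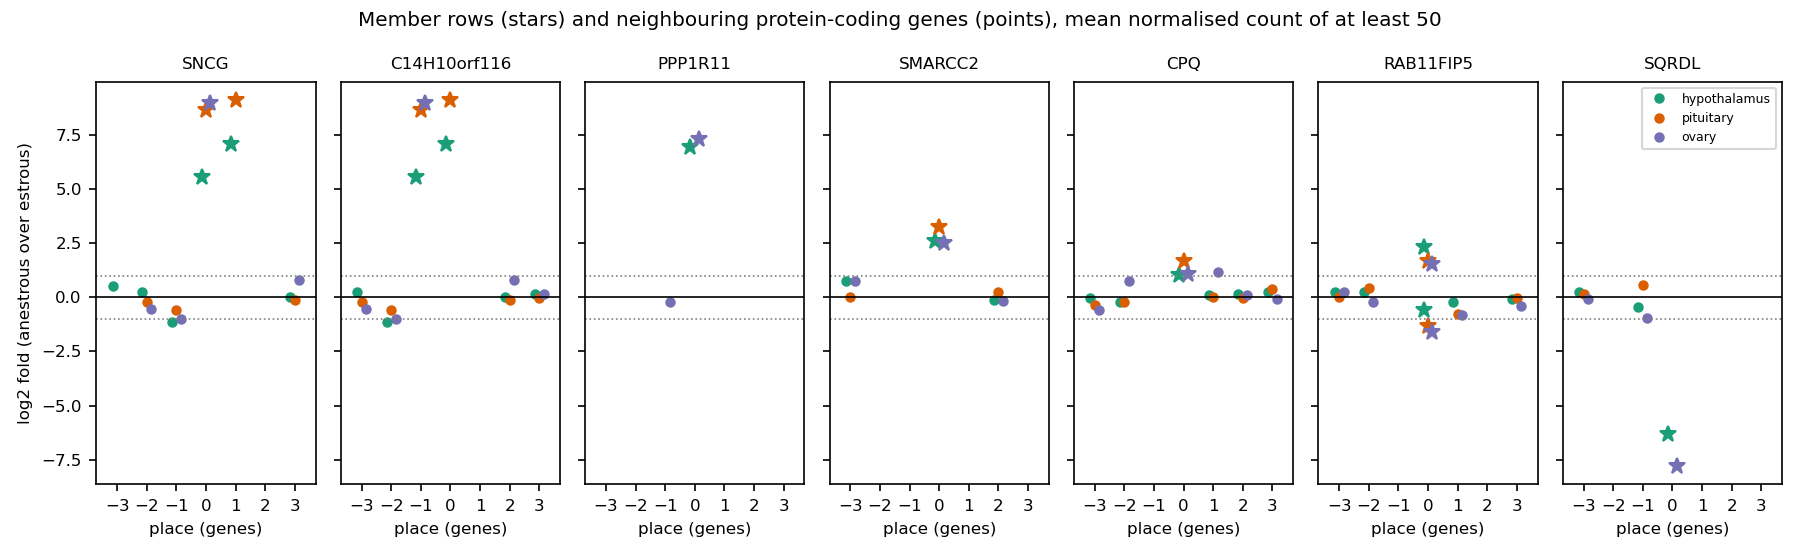
Log2 fold, anestrous over estrous, of the members (stars) and of the protein-coding genes up to 3 places away (points) by tissue, for values with a mean normalised count of at least 50; the horizontal axis counts genes from the member and dotted lines mark 2-fold. The points lie between the dotted lines apart from MMRN2 (-1.12, hypothalamus) and SDC2 (1.17, ovary), while SNCG and C14H10orf116 stand beside each other above 5.

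The PPP1R11 entry ENSSSCG00000028347 also had no read in any estrous library. It had 119 reads in the anestrous hypothalamus, 71 in the anestrous pituitary and 150 in the anestrous ovary, against 0 in each estrous library. Its folds were at least 40.9 in the hypothalamus, at least 25.1 in the pituitary and at least 54.2 in the ovary. Their lower 95% limits were 32.8, 19.9 and 43.5, and the log2 folds were 6.93, 6.21 and 7.30. In the pituitary the mean normalised count was 36.5, under the floor.

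The other PPP1R11 entry, ENSSSCG00000024259, was sparse and did not go one way. It had 34 reads in anestrus, against 22 in estrus, in the hypothalamus, 3 against 17 in the pituitary and 4 against 11 in the ovary. The hypothalamus fold of 1.60 (0.906 to 2.86) spans no difference, the pituitary value was 5.35-fold lower in anestrus (1.55 to 28.5), and the ovary value was 2.54-fold lower with an interval that again spans no difference (0.752 to 10.9). It was under the floor in every tissue, and the authors' deposited table gave it an adjusted p of 1 throughout. With the reads of both entries summed, PPP1R11 had 153 reads in the anestrous and 22 in the estrous hypothalamus, 74 and 17 in the anestrous and estrous pituitary, and 154 and 11 in the anestrous and estrous ovary. The summed folds were 7.18 (4.57 to 11.8), 4.61 (2.70 to 8.34) and 15.2 (8.25 to 31.0), all higher in anestrus.

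Of the phosphatase itself and its other regulators, 13 of 15 listed genes were found and all 13 had a mean normalised count of at least 10, the lower floor used for such related genes. In the hypothalamus, 0 of 13 were 2-fold higher or lower, beside 1.99% higher and 2.61% lower among all genes over that lower floor. PPP1R1A and PPP1R1B, which encode inhibitors of the phosphatase, were higher in the pituitary, with 592 and 1048 reads in anestrus against 207 and 420 in estrus (log2 folds 1.59 and 1.40), where the shares over all genes were 2.27% higher and 4.23% lower. In the ovary the same genes were lower, with 25 and 50 reads in anestrus against 76 and 542 in estrus (log2 folds -1.45 and -3.30), where the shares were 13.6% higher and 10.7% lower. PPP1CA, a catalytic subunit, had log2 folds of 0.07, 0.01 and 0.47. The list medians were 0.08, 0.04 and -0.16, beside medians over all genes of 0.00, 0.00 and 0.01 that hold for the lists below as well.

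SMARCC2 (ENSSSCG00000000382) was read in all 6 libraries and was higher in anestrus by a similar factor in each tissue. It had 547 reads in the anestrous and 92 in the estrous hypothalamus, 496 and 55 in the anestrous and estrous pituitary, and 416 and 78 in the anestrous and estrous ovary. The lowest anestrous library, at 25.3 RPM, lay above the highest estrous one, at 6.01 RPM. The folds were 6.14 (4.91 to 7.74), 9.56 (7.22 to 12.9) and 5.78 (4.53 to 7.46), and the log2 folds 2.60, 3.23 and 2.52. The authors' deposited table gave adjusted p-values of 6.1e-09, 1.15e-09 and 0.256, so that the ovary value was not past 0.05 there.

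The other subunits of the BAF complexes are given by their counts and medians. Of 25 listed subunits 22 were found, and 21 were over the lower floor in each tissue. In the hypothalamus and in the pituitary 0 of 21 were 2-fold different, and in the ovary 1 was, SMARCD3, with 806 reads in anestrus, against 2175 in estrus (log2 fold -1.32). The shares over all genes at that floor were 1.99% higher and 2.61% lower in the hypothalamus, 2.27% higher and 4.23% lower in the pituitary, and 13.6% higher and 10.7% lower in the ovary. SMARCC1, the close relative of SMARCC2 that encodes BAF155, had log2 folds of -0.29, 0.32 and 0.98. SMARCA4, the ATPase, had log2 folds of 0.16, 0.09 and 0.17. The list medians were -0.09, 0.07 and 0.03.

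CPQ (ENSSSCG00000006087) was higher in anestrus in each tissue, with the smallest log2 folds of the 8 alike entries in the hypothalamus and in the ovary. It had 385 reads in the anestrous and 196 in the estrous hypothalamus, 1838 and 602 in the anestrous and estrous pituitary, and 2202 and 1137 in the anestrous and estrous ovary. The fold was 2.03 in the hypothalamus (1.70 to 2.42) and 3.24 in the pituitary (2.95 to 3.55), and its 95% interval in the ovary was 1.95 to 2.26. Its log2 folds of 1.02, 1.69 and 1.07 lie near the limit of 1, and with equal library totals they were 0.92, 1.58 and 0.87, so that the hypothalamus and ovary values were then under 2-fold. The adjusted p-values in the authors' deposited table were 0.357, 1.53e-05 and 1.

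Among 9 other carboxypeptidases and lysosomal peptidases over the lower floor, 1 was 2-fold higher in the hypothalamus, CPXM2, with 777 reads in anestrus, against 276 in estrus (log2 fold 1.54). In the pituitary 0 of 9 were 2-fold different. In the ovary CTSA (cathepsin A) had 14030 reads in anestrus, against 4502 in estrus (log2 fold 1.76), and CNDP2 had 9057 against 3170 (log2 fold 1.63). CPXM2 and CPVL were lower in the anestrous ovary, with log2 folds of -1.82 and -1.58. The list medians were 0.05, -0.17 and 0.30. Over all genes at that floor, 1.99%, 2.27% and 13.6% were higher in hypothalamus, pituitary and ovary, and 2.61%, 4.23% and 10.7% were lower.

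The entries of RAB11FIP5 went opposite ways in every tissue. ENSSSCG00000022162 had 584 reads in the anestrous and 122 in the estrous hypothalamus, 92 and 30 in the anestrous and estrous pituitary, and 960 and 357 in the anestrous and estrous ovary. Its folds were 4.94 (4.06 to 6.06), 3.25 (2.13 to 5.08) and 2.91 (2.58 to 3.30), with log2 folds of 2.30, 1.67 and 1.54. ENSSSCG00000021283 had 535 reads in the anestrous and 829 in the estrous hypothalamus, 88 and 234 in the anestrous and estrous pituitary, and 903 and 2972 in the anestrous and estrous ovary. Its log2 folds were -0.59, -1.32 and -1.60. It was lower in anestrus by between 1.35- and 1.68-fold in the hypothalamus (95% interval), 2.51-fold in the pituitary (1.96 to 3.24) and 3.04-fold in the ovary (2.82 to 3.28). The authors' deposited table gave an adjusted p of 1.83e-07 for the first of these entries in the hypothalamus, and of 0.391 or more in the other 5 comparisons of either entry.

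**Figure D3:**
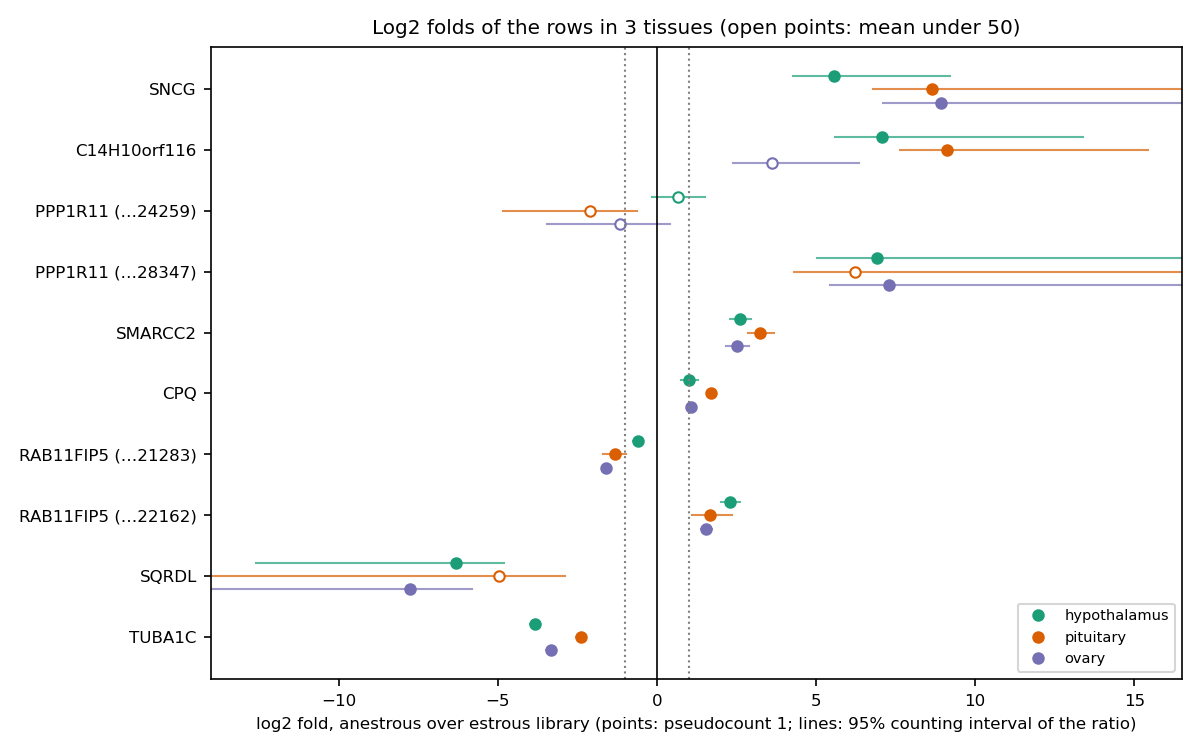
Log2 fold of anestrous over estrous normalised counts with 1 added (points) and the 95% counting interval of the ratio without it (lines), for each of the 10 entries and each tissue. Lines that pass the axis end at its limits, as those against 0 reads do, open points have a mean normalised count under 50, and dotted lines mark 2-fold. The 2 RAB11FIP5 entries lie on opposite sides of 0 in all 3 tissues, and PPP1R11 (ENSSSCG00000024259) is the entry whose side of 0 differs between tissues.

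The share of RAB11FIP5 reads that fell on each entry was close between tissues within a state and far apart between states. ENSSSCG00000022162 took 52.2% of the summed reads in the anestrous hypothalamus, 51.1% in the anestrous pituitary and 51.5% in the anestrous ovary, against 12.8%, 11.4% and 10.7% in the estrous libraries of the same tissues. The exact (Clopper-Pearson) 95% interval for ENSSSCG00000021283 was 44.8% to 50.8%, 41.4% to 56.4% and 46.2% to 50.8% in the anestrous libraries, and 84.9% to 89.2%, 84.2% to 92.2% and 88.2% to 90.3% in the estrous ones. The intervals overlapped between tissues of a state, and those of different states did not. Summed over both entries, RAB11FIP5 had 1119 reads in the anestrous and 951 in the estrous hypothalamus (log2 fold 0.28), 180 and 264 in the anestrous and estrous pituitary (-0.47), and 1863 and 3329 in the anestrous and estrous ovary (-0.72). No tissue was 2-fold different after summing, and the sign of the sum differed between tissues.

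Rab11 and its other interacting proteins gave 5, 6 and 5 genes over the lower floor in hypothalamus, pituitary and ovary. None was 2-fold different in the hypothalamus or the pituitary, and 1 was higher in the ovary, RAB11FIP4, with 30 reads in anestrus, against 10 in estrus (log2 fold 1.60). RAB11A, the GTPase, had 4173 reads in the anestrous and 3755 in the estrous hypothalamus, 2024 and 2619 in the anestrous and estrous pituitary, and 2520 and 2826 in the anestrous and estrous ovary. Its log2 folds were 0.20, -0.29 and -0.05. The list medians were 0.08, 0.16 and -0.05. Of all genes at that floor, 1.99%, 2.27% and 13.6% were higher in hypothalamus, pituitary and ovary, and 2.61%, 4.23% and 10.7% were lower.

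SQRDL (ENSSSCG00000004665) was read in the estrous libraries and almost not in the anestrous ones. It had 1 read in the anestrous hypothalamus, against 162 in the estrous, 0 in the anestrous pituitary, against 31 in the estrous, and 0 in the anestrous ovary, against 226 in the estrous. It was lower in anestrus by 157-fold in the hypothalamus (27.8 to 6237), by at least 9.75-fold in the pituitary and by at least 69.5-fold in the ovary. The lower 95% limits in the pituitary and ovary were 7.47-fold and 56.1-fold. In the pituitary its mean normalised count of 15.1 was under the floor. The authors' deposited table gave adjusted p-values of 1.78e-11, 0.0386 and 0.000173.

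A separate entry carries the current name of this gene, SQOR (ENSSSCG00000004666), and RefSeq lists SQRDL as a synonym of it. SQOR had 277 reads in the anestrous and 235 in the estrous hypothalamus, 61 and 42 in the anestrous and estrous pituitary, and 755 and 180 in the anestrous and estrous ovary, which gives folds of 1.22 (1.02 to 1.45), 1.54 (1.02 to 2.34) and 4.55 (3.86 to 5.38). The SQRDL entry took 0.360% of the summed reads in the anestrous hypothalamus, 0% in the anestrous pituitary and 0% in the anestrous ovary, with upper 95% limits of 1.99%, 5.87% and 0.487%. In the estrous libraries it took 40.8% (35.9% to 45.8%), 42.5% (31.0% to 54.6%) and 55.7% (50.7% to 60.6%). The sum of both entries was 278 reads in the anestrous and 397 in the estrous hypothalamus (log2 fold -0.47), 61 and 73 in the anestrous and estrous pituitary (-0.17), and 755 and 406 in the anestrous and estrous ovary (1.01). In the ovary the sum was therefore higher in anestrus, while the SQRDL entry alone was lower.

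Of 6 other genes of sulfide metabolism, SQOR among them, 0 were 2-fold different in the hypothalamus or the pituitary. In the ovary SQOR and ETHE1, the persulfide dioxygenase that acts after SQOR in the pathway, were higher in anestrus. ETHE1 had 1221 reads in the anestrous ovary, against 451 in the estrous (log2 fold 1.55). The list medians were -0.07, 0.05 and -0.48. Among all genes over the lower floor, 1.99%, 2.27% and 13.6% were higher in hypothalamus, pituitary and ovary. The shares called lower were 2.61%, 4.23% and 10.7%.

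TUBA1C (ENSSSCG00000000194) was the most highly read of the set in estrus and the member with the largest difference in reads. It had 404 reads in the anestrous and 5943 in the estrous hypothalamus, 523 and 2936 in the anestrous and estrous pituitary, and 510 and 5614 in the anestrous and estrous ovary. The anestrous libraries lay close together, at 25.6, 30.1 and 31.0 RPM, against 388, 173 and 362 RPM in the estrous libraries. It was lower in anestrus by 14.3-fold (12.9 to 15.8), 5.30-fold (4.83 to 5.83) and 10.2-fold (9.28 to 11.1), with log2 folds of -3.83, -2.40 and -3.34. The adjusted p-values in the authors' deposited table were 7.18e-29, 6.94e-12 and 0.0187.

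TUBA1B (ENSSSCG00000000190), an alpha-tubulin whose sequence is nearly the same as that of TUBA1C, was higher in anestrus in the same libraries. It had 30950 reads in the anestrous and 15767 in the estrous hypothalamus (2.03-fold), 12037 and 7971 in the anestrous and estrous pituitary (1.60-fold), and 13832 and 11775 in the anestrous and estrous ovary (1.27-fold). TUBA1C took 1.29%, 4.16% and 3.56% of the reads of this pair in the anestrous libraries, against 27.4%, 26.9% and 32.3% in the estrous ones. The sum of the pair was 31354 reads in the anestrous and 21710 in the estrous hypothalamus (log2 fold 0.58), 12560 and 10907 in the anestrous and estrous pituitary (0.29), and 14342 and 17389 in the anestrous and estrous ovary (-0.16). How the authors' counting divided reads between such near-identical genes is not given in the labels or file headers, and the levels of TUBA1C and TUBA1B taken singly are uncertain.

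**Figure D4:**
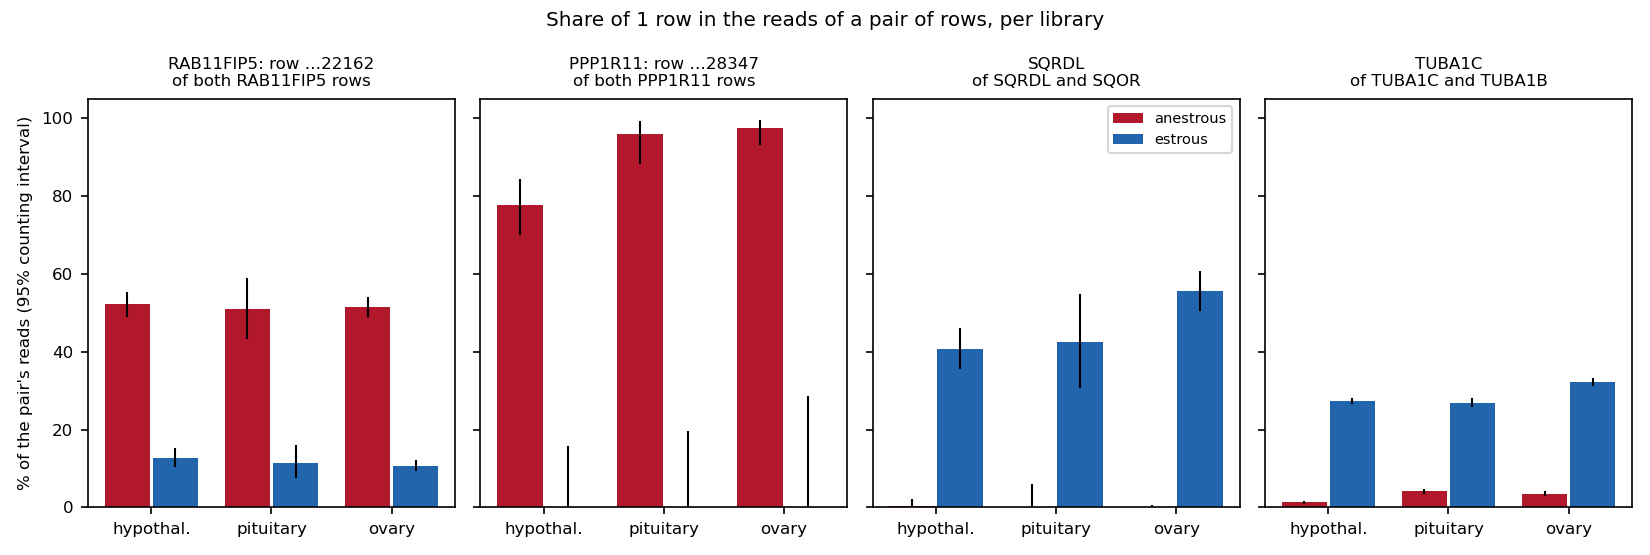
Share of the summed reads of a pair of entries that fell on one of them (percent, with exact 95% counting intervals), for RAB11FIP5, PPP1R11, SQRDL with SQOR, and TUBA1C with TUBA1B, in the anestrous and estrous library of each tissue. The anestrous and estrous shares do not overlap in any pair, as for TUBA1C with 1.29% to 4.16% in anestrus, against 26.9% to 32.3% in estrus.

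The other tubulins gave 8, 7 and 8 entries over the lower floor in hypothalamus, pituitary and ovary. TUBA1B was the only one of them 2-fold higher in the hypothalamus, and none was 2-fold different in the pituitary. In the ovary 3 beta-tubulins were higher, TUBB3 with 957 reads in anestrus, against 21 in estrus (log2 fold 5.56), TUBB4A with 115 against 5 (4.38), and TUBB2B with 1406 against 584 (1.38). In the hypothalamus these had log2 folds of 0.37, -0.10 and -0.15. A second entry of TUBA4A (ENSSSCG00000016216) was lower in the ovary, with 15 reads in anestrus, against 57 in estrus. The list medians were 0.36, -0.04 and 0.07. Over all genes at that floor, 1.99%, 2.27% and 13.6% were higher in hypothalamus, pituitary and ovary, and 2.61%, 4.23% and 10.7% were lower.

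Fat cell genes, set beside C14H10orf116 for its role in making fat cells, gave 5, 3 and 4 genes over the lower floor. None was 2-fold different in the hypothalamus. CEBPA and CEBPD, transcription factors of fat cell formation that other cells express too, were lower in the anestrous pituitary, with 18 and 1223 reads, against 43 and 3067 in the estrous (log2 folds -1.13 and -1.24), where C14H10orf116 was higher. In the ovary CEBPA had 305 reads in anestrus, against 62 in estrus (2.39), and CIDEC, a lipid droplet protein, had 32 against 5 (2.56). PPARG, with 463 against 726 reads (-0.53), and CEBPD, with 1859 against 3634 (-0.85), were lower in the anestrous ovary by under 2-fold. The list medians were 0.32, -1.13 and 0.93. Of all genes at that floor, 1.99%, 2.27% and 13.6% were higher in hypothalamus, pituitary and ovary, and 2.61%, 4.23% and 10.7% were lower. Across the 8 lists of related genes, 65 entries were over the lower floor in all 3 tissues, and 0 of them were 2-fold alike in all 3, beside 0.143% higher and 0.168% lower among all genes over that floor.

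**Figure D5:**
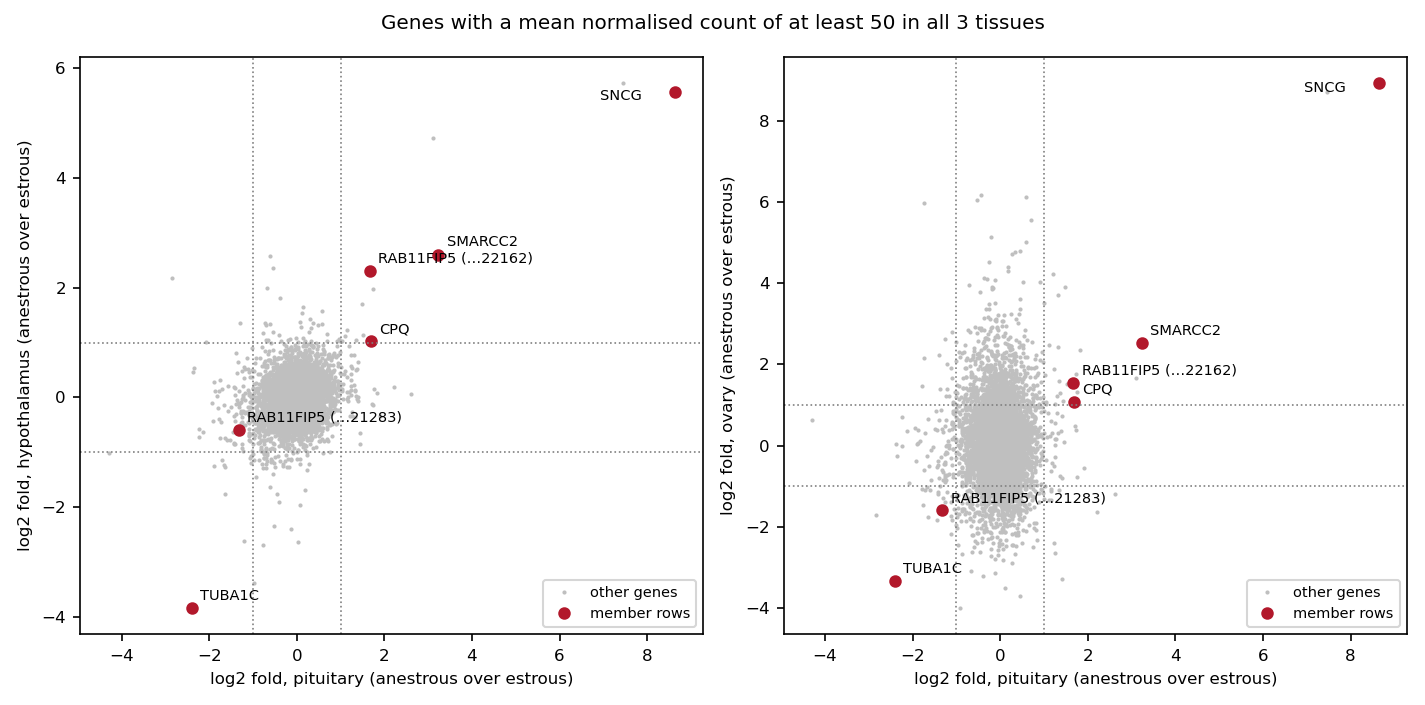
Log2 fold, anestrous over estrous, of every gene with a mean normalised count of at least 50 in all 3 tissues, with the pituitary on the horizontal axis against the hypothalamus (left) and the ovary (right); the 6 entries of the set that met this floor are in red and dotted lines mark 2-fold. SNCG (8.64 in the pituitary) and TUBA1C (-2.40) stand at opposite corners, and CPQ lies just outside the 2-fold line.

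By tissue, 9 of the 10 entries were over the floor of 50 in the hypothalamus, of which 6 were called higher and 2 lower, where 1.29% and 1.04% of all genes over the floor were. In the pituitary 7 were over the floor, with 5 called higher and 2 lower, beside 1.2% and 1.9% of all genes. In the ovary 8 were, with 5 called higher and 3 lower, beside 12.3% and 7.95% of all genes. The choice of the genes used these contrasts, and nothing is read from the counts. In all, 16 genes of the tables were called alike in the 3 tissues, the 5 entries named above and 11 others. Of those 11, SLA-DRB1 (an MHC class II gene), CSF1R (the receptor of macrophage colony-stimulating factor) and ND2 (a mitochondrial gene) were higher, ATP8 (also mitochondrial) and TMP-SLA-2 were lower, and 6 had no name.

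The genes just past the limit of the rule were the unnamed ENSSSCG00000002362, with a smallest log2 fold of 1.01 in size over the 3 tissues, CPQ with 1.02 and TMP-SLA-2 with 1.03. Just short of it were VEZF1, with log2 folds of -1.03, -0.99 and -1.33, and TRPT1, with 1.03, 0.98 and 1.07. FAM198A, MYBPC3 and CRABP1 followed, each short of 2-fold in the pituitary, at 0.97, -0.97 and -0.92. CPQ thus sits among genes that differ from it by a few hundredths in this measure.

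Entries with reads in one state and next to none in the other were rare. At most 3 reads in each library of one state and at least 50 in each of the other were found for 3 genes read in anestrus (0.0329% of those with at least 50 reads in each anestrous library) and for 1 read in estrus (0.0107% of those with at least 50 reads in each estrous library). SNCG and PPP1R11 (ENSSSCG00000028347) were 2 of these 4, and the other two had no name. With 30 reads in place of 50 there were 7 such genes, with SQRDL now among them, and with C14H10orf116, whose lowest anestrous library held 45 reads. One of the unnamed genes, ENSSSCG00000023945, had 102, 333 and 402 reads in the anestrous hypothalamus, pituitary and ovary, against 1, 1 and 0 in the estrous ones, which follows the order of SNCG.

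The genes outside the set whose 3 log2 folds lay nearest to each entry were measured by Euclidean distance over the tissues. The 8 genes themselves, and genes under the floor of 50 in any tissue, were left out of this search. Within it ENSSSCG00000023945 was nearest to SNCG, at a distance of 1.22, and the nearest named gene, CSF1R, lay at 9.55. For TUBA1C the nearest named genes in the search were MYBPC3 (1.75) and CRABP1 (2.88), and for SMARCC2 they were CSF1R (2.40) and ND2 (2.47). CPQ had near relatives in this sense, ND2 at 0.49 and DLGAP1 at 0.64, and RAB11FIP5 (ENSSSCG00000021283) had TMCC3 at 0.27 and G0S2 at 0.36. For SQRDL the nearest named gene in the search was MYBPC3, at 7.27. The unnamed ENSSSCG00000023383, with reads in estrus alone, was under the floor in the hypothalamus and the pituitary and so was left out. The 3 tissues are the only points behind these distances.

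Sequence differences between the animals, which can change how many reads map to an entry, were not tested, because the tables hold no base calls. No gene, promoter or protein sequence was used here.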

How the data were processed

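Frozen tissue was extracted with Trizol, and an Illumina TruSeq kit gave the libraries, per the labels' protocols. The submitters' processing notes name TopHat2 2.1.0. Which counter, build, annotation and strand setting were used is not given in the sources used here. Overlapping or near-identical genes are therefore uncertain. The authors deposited 1 table per tissue, with a normalised signal per gene (reads divided by a size factor) and, per the file headers, a p-value and an adjusted p-value. Reads were recovered by dividing each signal by the smallest in its column, which gave whole reads within 0.01 for 100% of values. Each table had its own normalisation. Folds were therefore taken within a tissue, and RPM values or shares set across tissues compare libraries of separate tables.

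Symbols came from the tables (12762 genes) and then from Ensembl names (14419 in all). The members, gene lists and rules were chosen with earlier results of these data known. Named genes were all member entries, listed relatives at least 2-fold different or with most reads, the nearest genes by log2 fold, those just short of 2-fold, and chromosome neighbours, of which some are not reported here. SQOR, ENSSSCG00000023945 and other unnamed genes were named after their values were seen.

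The states were not tested within a tissue, which has 1 library of each. The 95% intervals come from the exact conditional binomial (Clopper-Pearson) method on reads. Like the 3-read floor, they hold counting error alone, because amplified reads with no molecular identifier are not independent molecules. As an alternative, recovered reads were tested in R 4.3.3 for state with tissue as a blocking factor, which treats tissues as replicates although they are not. edgeR 4.0.16 (quasi-likelihood) called 0 of 14444 genes higher and 0 lower at an adjusted p of 0.05, with 542 at an unadjusted p under 0.05. DESeq2 1.42.0 called 23 higher and 23 lower of 16887.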

Additional observations from a re-analysis of the deposited data

Results flagged for a closer look

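The direction of the difference between anestrus and estrus was not the same in all tissues for 1 entry and for 3 sums of reads. Each rests on 1 library per tissue and state, and the difference between tissues was not tested. PPP1R11 (ENSSSCG00000024259) had a log2 fold, anestrous over estrous, of 0.65 in the hypothalamus, -2.10 in the pituitary and -1.16 in the ovary, on 3 to 34 reads per library. Both RAB11FIP5 entries summed had log2 folds of 0.28, -0.47 and -0.72 in the same order of tissues. SQRDL summed with SQOR had -0.47, -0.17 and 1.01. TUBA1C summed with TUBA1B had 0.58, 0.29 and -0.16.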

How the results depend on the processing

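No paired analysis was possible because the labels give no replicate numbers, apart from the count test below, in which tissue is the block. Against 147 genes higher and 119 lower in the hypothalamus, 129 higher and 204 lower in the pituitary, and 1343 higher and 867 lower in the ovary, removing the floor gave 845 and 877, 965 and 1139, and 2534 and 2223. A floor of 200 gave 75 and 29, 48 and 84, and 880 and 501. A limit of 1.5-fold gave 542 and 558, 500 and 730, and 2341 and 1835, and one of 4-fold gave 26 and 16, 11 and 22, and 395 and 162. An adjusted p of at most 0.05 in the authors' deposited table as a further condition gave 67 and 31, 36 and 50, and 92 and 15. Against 12 genes higher and 4 lower in all 3 tissues, there were 51 and 67 without a floor, 4 higher at a floor of 200, 24 and 28 at 1.5-fold, 3 and 1 at 4-fold, and 2 and 1 with the authors' p. The count test is not the same measure: it needs an adjusted p of at most 0.05, without the floor of 50 or the 2-fold limit. Nor does it need a gene to be alike in each tissue. It gave 0 and 0 by edgeR and 23 and 23 by DESeq2. Equal library totals moved the median log2 fold of all genes by -0.09, -0.12 and -0.20, and gave 113 higher and 167 lower in the hypothalamus, 98 higher and 277 lower in the pituitary, 1033 higher and 1242 lower in the ovary, and 8 and 7 alike in all 3. Of the 30 log2 folds of the members none changed sign with equal totals, a trimmed mean of log ratios or a pseudocount of 5. The pseudocount of 5 moved 10 of them beyond their interval, by up to 2.31. Equal totals moved 4 of them beyond it, those of TUBA1C, CPQ and both RAB11FIP5 entries in the ovary. Summing entries turned the sign for RAB11FIP5 (ENSSSCG00000022162) in the pituitary (-0.47) and ovary (-0.72), for RAB11FIP5 (ENSSSCG00000021283) in the hypothalamus (0.28), and for PPP1R11 (ENSSSCG00000024259) in the pituitary (2.14) and ovary (3.80). Sums with SQOR and TUBA1B, chosen after seeing the data, turned it for SQRDL in the ovary (1.01) and for TUBA1C in the hypothalamus (0.58) and pituitary (0.29). Depth limits the entries with 0 to 3 reads in a state, where the fold is written "at least" or has a wide interval.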

Other observations

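Among all symbols with 2 entries in the tables (207), 96 had both entries at a mean normalised count of at least 10 in each tissue. In 4 of them the entries had opposite signs of the log2 fold in all 3 tissues: RAB11FIP5, ADAMTS1, GRIPAP1 and TTC19. How many pairs would do so with unrelated signs was not tested, and nothing is read from this count. ADAMTS1, a secreted metalloproteinase of the ovulating follicle, had log2 folds, anestrous over estrous, of -1.92, -1.28 and -1.40 in hypothalamus, pituitary and ovary at ENSSSCG00000012026, and of 0.28, 0.71 and 0.04 at ENSSSCG00000029488. The latter entry had few reads, 26 in the anestrous and 22 in the estrous hypothalamus, and 36 and 23 in the anestrous and estrous pituitary. Its signs are therefore uncertain. The entries of GRIPAP1 and TTC19 all lay within 0.22 of 0.

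Of the 11897 genes with a mean normalised count of at least 10 in all 3 tissues, 3066 (25.8%) had the same sign of the log2 fold in each of them. The mitochondrial genes ND2 and ATP8, both alike across tissues, went opposite ways. ND2 had 160473 reads in the anestrous and 75360 in the estrous hypothalamus, with log2 folds of 1.14, 1.52 and 1.52 in the 3 tissues. ATP8 had 5206 reads in the anestrous and 11782 in the estrous hypothalamus, with log2 folds of -1.13, -1.71 and -1.10.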
